A study of Homo sapiens with 16 samples.

Results

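The genes described here are 55 human genes of the machinery that carries cells through mitosis: cyclins and their kinase, mitotic kinases, checkpoint and kinetochore subunits, spindle motors, cytokinesis proteins and the ubiquitin ligase factors that end mitosis. They were taken by gene symbol from a list that was drawn up with earlier results of these data known. All 55 were found among the 34618 gene IDs of the deposited count table, and all 55 were tested in every comparison. RNA was sequenced from 4 groups of 4 libraries each, 16 in all: KG1A cells treated with 10 µM NEL, KG1A cells given the vehicle DMSO, U937 cells treated with 10 µM NEL, and U937 cells given DMSO. Both are human acute myeloid leukaemia lines per the labels; KG1A is an immature line that carries CD34, and U937 is a promonocytic line. Culture was in RPMI with dialyzed fetal bovine serum throughout, the agent is spelled NEL in the labels without further definition, and no treatment time is given in the sources used here. The series title names ribonucleotide reductase, deoxynucleotide balance and the differentiation block of this leukaemia. The comparisons made here are NEL against DMSO in each line, the difference of that effect between the lines, and the lines against each other in DMSO.

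Mitotic entry is driven by CDK1 bound to cyclin A or B, whose activity is released by CDC25 phosphatases and amplified by PLK1 and the Aurora kinases. Kinetochores assembled on centromeres capture spindle microtubules, and until every chromosome is attached the checkpoint proteins BUB1, BUBR1 (encoded by BUB1B), MAD2 and MPS1 (encoded by TTK) hold the anaphase promoting complex (APC/C), a ubiquitin ligase, away from its activator CDC20. When the checkpoint is satisfied, APC/C with CDC20 destroys cyclin B and securin, separase cuts cohesin, and kinesins and their partners complete cytokinesis. Transcripts of these genes are low in G1 and high in G2 and mitosis. Their promoters are known for CCAAT boxes bound by NF-Y and for the cell cycle genes homology region (CHR), through which the MuvB core represses them with p130 and E2F4 (DREAM) and activates them with B-MYB and FOXM1.

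Library totals were even, from 10641567 to 11777684 counts, and an undetected gene could hold at most 0.255 to 0.282 CPM, for counting error only. CPM is the count per library total, rescaled with the fit's TMM factors. Calls were made with edgeR's quasi-likelihood test where the adjusted p was under 0.05, and fold changes are NEL over DMSO on the log2 scale. SE is the absolute log2 fold change divided by the square root of that test's F statistic. The markers CD34 and LYZ matched the labelled lines. CD34 averaged 252 and 221 RPKM in KG1A with NEL and with DMSO and at most 0.218 RPKM in the U937 groups. Of the other markers listed for KG1A, CD7 and SPINK2 averaged 21.0 and 11.3 RPKM in KG1A with DMSO and at most 0.029 RPKM in U937. KIT, PROM1 and FLT3, also listed for KG1A, were near 0 there, with means up to 0.567, 0.297 and 0.011 RPKM. FLT3 was higher in U937, at 0.185 RPKM with NEL, so these 3 do not mark the line here. LYZ averaged 57.1 and 39.1 RPKM in U937 with NEL and with DMSO and at most 0.118 RPKM in the KG1A groups. MPO, another myeloid marker, was near 0 in all groups, with means up to 0.14 RPKM, and the erythroid globins HBA1 and HBA2 and the epithelial keratins KRT18 and KRT19 were at 0 in every library. Of T lymphoid markers, CD3D averaged 119 and 125 RPKM in KG1A with NEL and with DMSO, while CD3G and CD2 stayed under 0.2 RPKM there. The mitochondrially encoded share of counts ranged from 7.34% to 9.94% in KG1A NEL libraries, against 8.24% to 10.4% in KG1A DMSO libraries. It ranged from 5.89% to 7.29% in U937 NEL libraries, against 7.09% to 9.33% in U937 DMSO libraries. Its part in the results was not tested. No label states that a group's 4 libraries are separate cultures; p-values therefore reflect library-to-library spread, which could be technical. Within every group libraries 1 and 3 stood apart from libraries 2 and 4. The squared contrast between these sets was 11.1 to 16.2 times the counting variance over genes, against 1.18 to 2.95 times for the other ways of pairing the libraries. The separate samples may number 2 per group rather than 4. All 40 members called in KG1A and all 44 called in U937 kept their sign in each set alone. All were still called when libraries 1 and 2, and 3 and 4, were summed to 2 samples per group. Each of those sums holds a library of either set, so the gap between the sets leaves the spread. That fit called more members, 45 in KG1A and 48 in U937. It cannot show that the calls hold with 2 separate samples. With libraries 1 and 3, and 2 and 4, summed instead, which keeps the gap between the sets in the spread, 29 of the 40 and 39 of the 44 were still called (edgeR adjusted p under 0.05). The calls lost in KG1A were those of BUB1B, CCNB1, CDCA3, CDCA8, ECT2, ESPL1, GTSE1, MAD2L1, NUF2, TOP2A and TPX2, with adjusted p from 0.0655 to 0.182, and those lost in U937 were CCNB2, CDC25C, CENPA, NDC80 and PRC1, from 0.0628 to 0.119. Calls over all genes fell in that fit too. In KG1A 2392 genes were higher and 2062 lower, against 3367 and 3362 with the libraries kept apart. In U937 4568 were higher and 4476 lower, against 4985 and 4993.

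Promoter sequences are shown for 6 members because the results below turn on these genes: CDC20, PLK1 and CCNB1 were lower with NEL in both lines, CDK1, TOP2A and CDCA5 were higher in both. Each line gives the 250 bases before the transcript start, 5′ to 3′ on the gene's own strand, from RefSeq on GRCh38.p14. Capitals mark a CHR element (TTTGAA or its variant TTCGAA) or a CCAAT box, read on either strand; TTCAAA and ATTGG are the same elements on the other strand.
CDC20: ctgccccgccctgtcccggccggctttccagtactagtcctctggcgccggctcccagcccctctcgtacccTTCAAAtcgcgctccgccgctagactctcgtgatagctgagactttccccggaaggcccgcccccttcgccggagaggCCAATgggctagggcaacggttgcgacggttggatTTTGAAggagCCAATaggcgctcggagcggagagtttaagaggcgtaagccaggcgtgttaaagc
PLK1: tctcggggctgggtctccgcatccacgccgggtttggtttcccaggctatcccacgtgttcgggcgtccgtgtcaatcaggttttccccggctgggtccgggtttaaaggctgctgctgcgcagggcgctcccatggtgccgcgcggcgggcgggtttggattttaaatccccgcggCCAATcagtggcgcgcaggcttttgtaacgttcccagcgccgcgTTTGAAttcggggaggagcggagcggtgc
CCNB1: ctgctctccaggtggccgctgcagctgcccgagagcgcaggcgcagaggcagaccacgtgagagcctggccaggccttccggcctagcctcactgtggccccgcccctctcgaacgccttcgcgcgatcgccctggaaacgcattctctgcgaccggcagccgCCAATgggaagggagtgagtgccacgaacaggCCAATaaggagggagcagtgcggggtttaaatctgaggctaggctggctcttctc
CDK1: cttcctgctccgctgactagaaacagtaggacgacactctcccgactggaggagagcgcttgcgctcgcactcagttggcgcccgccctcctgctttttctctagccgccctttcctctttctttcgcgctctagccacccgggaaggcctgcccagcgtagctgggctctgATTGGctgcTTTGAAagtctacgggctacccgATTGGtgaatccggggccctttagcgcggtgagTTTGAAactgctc
TOP2A: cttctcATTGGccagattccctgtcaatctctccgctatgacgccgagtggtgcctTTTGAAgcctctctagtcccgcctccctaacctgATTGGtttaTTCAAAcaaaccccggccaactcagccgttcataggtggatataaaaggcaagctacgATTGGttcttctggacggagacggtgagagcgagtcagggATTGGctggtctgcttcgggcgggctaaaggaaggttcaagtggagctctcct
CDCA5: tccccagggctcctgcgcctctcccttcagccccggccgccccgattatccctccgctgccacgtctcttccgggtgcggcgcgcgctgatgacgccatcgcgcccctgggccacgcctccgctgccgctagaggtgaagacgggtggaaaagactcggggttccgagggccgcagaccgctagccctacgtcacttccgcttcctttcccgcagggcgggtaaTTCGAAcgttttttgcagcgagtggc
These windows are chr1:43358731-43358980, plus strand (CDC20); chr16:23678639-23678888, plus strand (PLK1); chr5:69166900-69167149, plus strand (CCNB1); chr10:60778228-60778477, plus strand (CDK1); chr17:40417897-40418146, minus strand (TOP2A); and chr11:65084041-65084290, minus strand (CDCA5). In PLK1 the TTTGAA match began 29 bases before the start and the CCAAT box 73 bases before it. CDC20 had TTTGAA 178 and 65 bases before the start and CCAAT boxes at 100 and 55 bases. CCNB1 had CCAAT boxes at 87 and 55 bases before the start and neither form of the CHR in this window. CDK1 and TOP2A, higher with NEL, had both kinds of element, and CDCA5 had the variant TTCGAA 26 bases before the start and no CCAAT box in the window.

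RefSeq promoter entries, each from 250 bases before the start to 50 after it, matched 46 of the 55 genes with 58 promoters. AURKA, BIRC5, BUB3, CDCA2, FOXM1, RACGAP1, TPX2, TTK and UBE2C had none in the table. TTTGAA, on either strand, was in 34 of the 58 promoters (58.6%), against 15.2% of all 35116 promoters in the table and 12.4% of the 22199 promoters of protein-coding genes. TTCGAA was in 5 of 58 (8.62%), against 1.45% of all promoters, and CCAAT was in 43 of 58 (74.1%), against 34.6% of all promoters. In these 58 promoters 2 TTTGAA matches shared a base with a CCAAT match. The matches were not spread evenly: 22 of 47 TTTGAA matches began within 40 bases before the start, and 52 of 83 CCAAT matches began 120 to 41 bases before it. Promoter windows of the same gene can overlap, as for PTTG1, AURKB and CDC25C. A single site is then counted in each window, so these matches are not all distinct sites. Both kinds of element were found in genes that went up and in genes that went down. Counted by gene, with any of its promoters, 10 of the 15 genes lower in both lines had a CHR of either form and 14 a CCAAT box. Among the 10 higher in both lines, 8 had a CHR and 7 a CCAAT box. By the same count 76.1% of the 46 members had a CHR of either form, against 17.5% of 15843 protein-coding genes. A CCAAT box was in 82.6% of the 46, against 42.1%. A match of these letters is a description of the window and not a bound site.

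**Figure D1:**
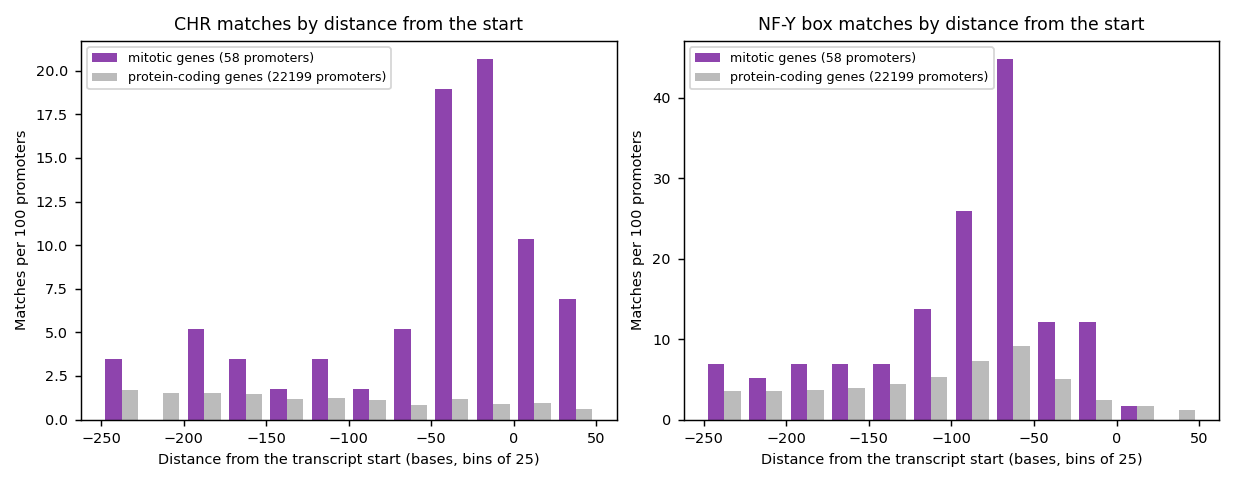
Matches of the CHR letters TTTGAA (left) and of the CCAAT box bound by NF-Y (right) per 100 promoters, in bins of 25 bases by distance of the match from the transcript start, for the 58 promoters of the mitotic genes (purple) and the 22199 promoters of protein-coding genes (grey). The variant TTCGAA is not drawn. TTTGAA matches of the mitotic genes are densest just before the start and CCAAT matches further upstream, where 52 of 83 lie 120 to 41 bases before the start.

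In KG1A cells the mitotic genes moved in both directions with NEL, and in U937 cells most of them fell. In KG1A, 24 of the 55 rose, 16 fell and 15 were not called. Among all 14250 genes tested 47.2% were called, 23.6% higher and 23.6% lower. The median log2 fold change of the 55 was 0.07, against -0.0045 for all genes tested, and CDCA5 (higher) and PSRC1 (lower) were the members changed at least 2-fold. With limma-trend on log2(RPKM + 0.5), which changes the scale, the pseudocount and the test together, 69.2% of called members and 64.5% of all genes called in KG1A were higher, against 60% and 50% with edgeR and TMM scaling, and the median of all genes moved to 0.053. In U937, 12 rose, 32 fell and 11 were not called. Among all 14390 genes tested 69.3% were called, 34.6% higher and 34.7% lower. By size, the median absolute log2 fold change in U937 was 0.328 for the 55 and 0.382 for all genes tested. In KG1A it was 0.240 for the 55 and 0.204 for all genes tested. With limma-trend on log2(RPKM + 0.5), 37 members were called in U937, of which 35.1% were higher, against 27.3% with edgeR, and 58.8% of all genes called were higher, with a median of all genes of 0.074. The median of the 55 was -0.20, against -0.0044 for all genes tested, and CDC20, KIF20A and PLK1 fell at least 2-fold. NEL libraries were clear of DMSO libraries for 34 members in KG1A, where 42.4% of all genes did not overlap, and for 41 members in U937, where 62.4% did not. As a share of all counts the 55 genes together held 0.83% ± 0.025 in KG1A NEL libraries and 0.759% ± 0.016 in KG1A DMSO libraries, and 0.980% ± 0.029 in U937 NEL libraries and 1.03% ± 0.026 in U937 DMSO libraries (SD, n = 4 each). These shares did not overlap in KG1A and overlapped in U937. In bulk RNA, fewer cells in G2 or mitosis and less of these transcripts per cell cannot be told apart.

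**Figure D2:**
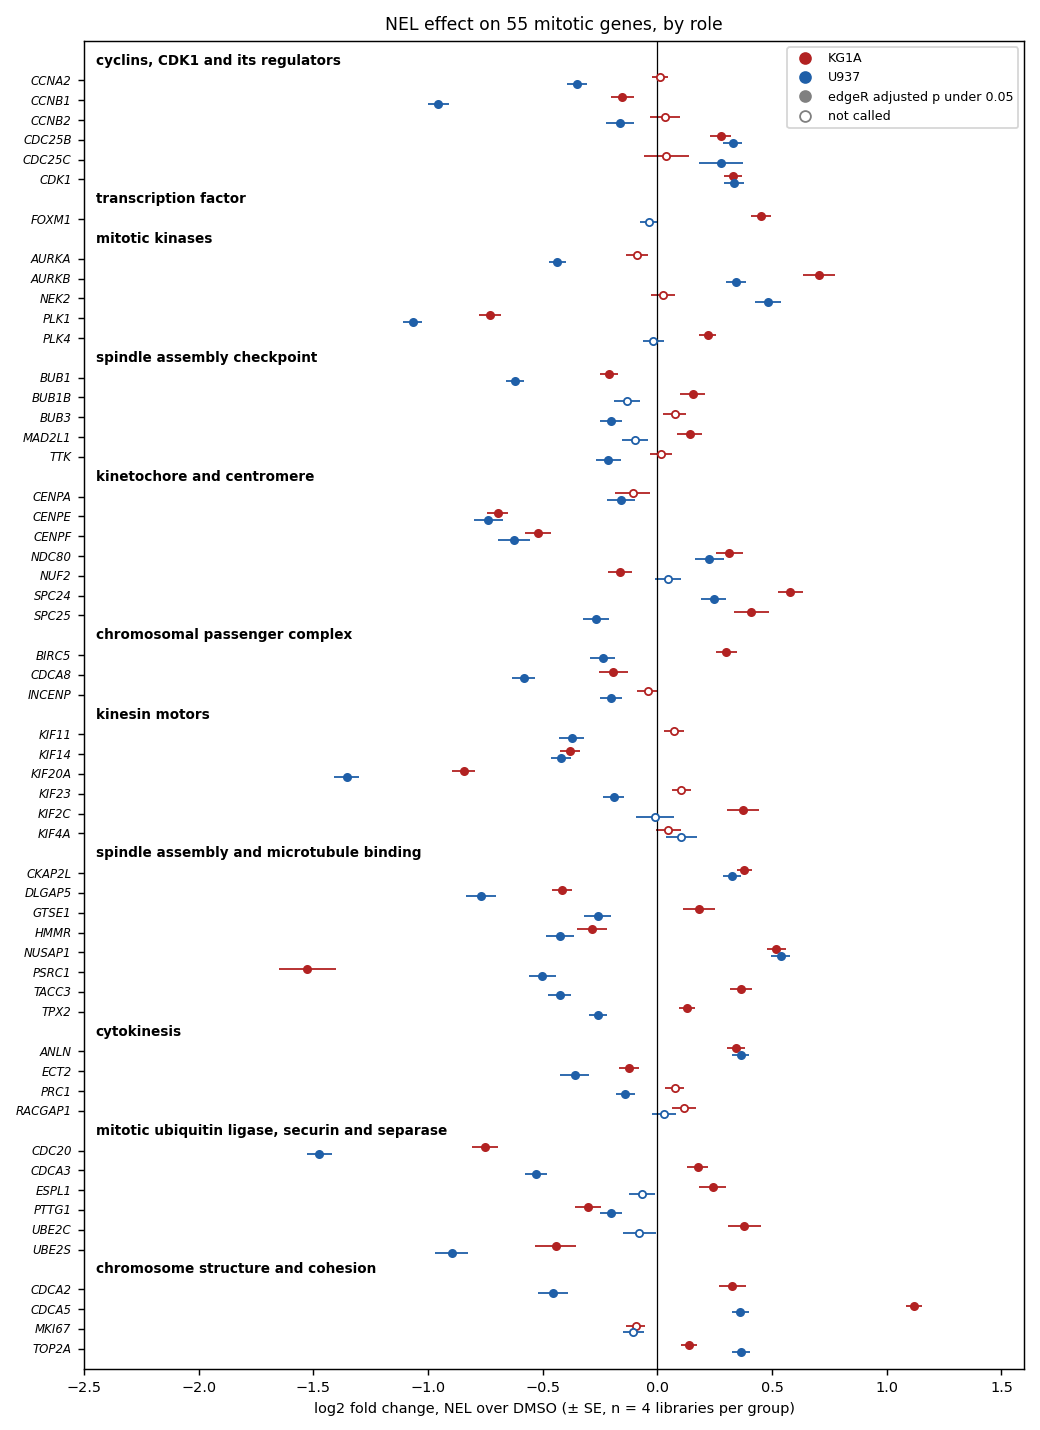
Log2 fold change, NEL over DMSO, of each of the 55 genes in KG1A (red) and U937 (blue), grouped by role, with 4 libraries per group. Bars give the SE derived from the edgeR test. Filled points were called by edgeR at an adjusted p under 0.05. CDC20, KIF20A and PLK1 lie farthest to the left in U937, PSRC1 in KG1A, and CDCA5 in KG1A lies farthest to the right.

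CDK1, the kinase that drives entry into mitosis, rose with NEL in both lines, while none of its cyclins rose in either. CDK1 (ENSG00000170312, chr10:62538089-62554610 on GRCh37) had 149.9, 159, 149.8 and 159.8 CPM in KG1A NEL libraries, against 123, 128, 119 and 123 CPM in KG1A DMSO libraries. Every NEL library lay above every DMSO library (log2 fold change 0.33, SE 0.04, edgeR adjusted p = 1.15e-05). In U937 it had 150.4, 159, 153 and 162 CPM with NEL, against 119, 124, 121 and 132 CPM with DMSO, again without overlap (log2 fold change 0.33, SE 0.045, edgeR adjusted p = 1.39e-05). CCNB1, the B-type cyclin that activates CDK1 at mitotic entry, had 112, 110.5, 104 and 116 CPM in U937 NEL libraries, against 217, 216, 203 and 223 CPM in U937 DMSO libraries. All NEL libraries lay below the DMSO libraries, 1.94-fold lower (log2 fold change -0.96, SE 0.045, edgeR adjusted p = 4.61e-10). In KG1A the CCNB1 values were 98.1, 104, 104 and 104 CPM with NEL and 105, 111, 118 and 122 CPM with DMSO, a smaller fall (log2 fold change -0.15, SE 0.049, edgeR adjusted p = 0.0197). It was no longer called without KG1A DMSO library 3 (adjusted p = 0.0567), without DMSO library 4 (0.0705), without NEL library 1 (0.0590) or with limma-trend on RPKM (-0.083, 0.248).

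CCNA2, cyclin A, which acts from S phase to early mitosis, averaged 190.0 ± 8.23 CPM in U937 with NEL and 242 ± 10.5 CPM with DMSO and fell (log2 fold change -0.35, SE 0.045, edgeR adjusted p = 9.53e-06). In KG1A it averaged 171 ± 2.24 CPM with NEL and 169.7 ± 3.01 CPM with DMSO and was not called (log2 fold change 0.012, SE 0.034, edgeR adjusted p = 0.795). CCNB2, the other B-type cyclin, changed by -0.16 in U937 (adjusted p = 0.0263) and was not called in KG1A. CDC25B, a phosphatase that switches CDK1 on, rose in both lines, by 0.27 in KG1A and 0.33 in U937. CDC25C, a related phosphatase with low counts (means of 10.8 to 13.4 CPM over the 4 groups), rose in U937 by 0.28 (adjusted p = 0.0200) with overlapping libraries. CCNA2 overlaps EXOSC9 and CDC25C overlaps FAM53C, each on the opposite strand, and the mean counts of EXOSC9 and FAM53C are 42.2% and 478% of those of CCNA2 and CDC25C, so these values are uncertain. FOXM1 (ENSG00000111206, chr12:2966847-2986206), the transcription factor that activates G2 and M genes, had 254, 250.1, 236 and 233 CPM in KG1A NEL libraries, against 186, 169.6, 181 and 175 CPM in KG1A DMSO libraries, and rose without overlap (log2 fold change 0.45, SE 0.042, edgeR adjusted p = 9.82e-07). In U937 it had 228, 221, 232 and 220.0 CPM with NEL and 235, 225, 237 and 227 CPM with DMSO. The libraries overlapped and it was not called (log2 fold change -0.039, SE 0.038, edgeR adjusted p = 0.382). That value turned positive with upper quartile factors (0.018) and with limma-trend on RPKM (0.051). FOXM1 overlaps ITFG2 and RHNO1 on the opposite strand, whose mean counts are 25.3% and 32.1% of its own; how strand was set in counting is not given in the sources used here.

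**Figure D3:**
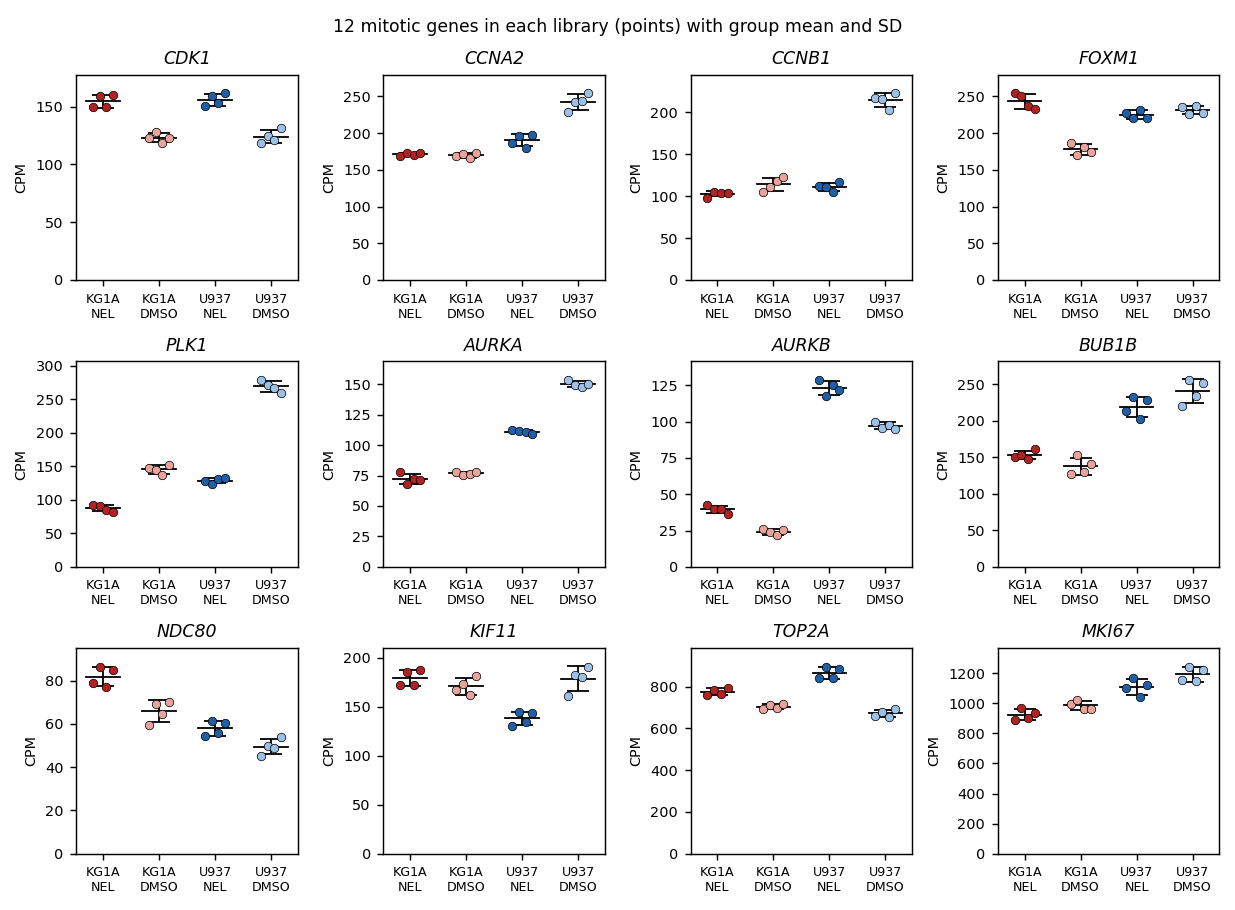
CPM of 12 mitotic genes in each library (points), with the group mean and SD (bars), in KG1A NEL, KG1A DMSO, U937 NEL and U937 DMSO, left to right, on axes that start at 0. CDK1 sits higher with NEL in both lines, PLK1 lower in both, AURKB higher in both, FOXM1 higher in KG1A, and CCNB1, CCNA2, AURKA and KIF11 lower in U937 with all 4 NEL libraries below the DMSO libraries.

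Of the 5 mitotic kinases, PLK1 fell and AURKB rose in both lines. PLK1 (ENSG00000166851, chr16:23688977-23701688), which drives centrosome maturation, mitotic entry and exit, had 92.8, 90.3, 84.9 and 82.3 CPM in KG1A NEL libraries, against 148, 145, 136 and 153 CPM in KG1A DMSO libraries. The highest NEL library was below the lowest DMSO library (log2 fold change -0.73, SE 0.048, edgeR adjusted p = 3.35e-08). In U937 it had 128, 123, 131 and 132 CPM with NEL, against 279, 272, 267 and 259.6 CPM with DMSO, 2.09-fold lower (log2 fold change -1.07, SE 0.041, edgeR adjusted p = 6.34e-11). AURKB, the kinase of the chromosomal passenger complex that corrects faulty attachments, had 42.3, 39.5, 40.1 and 36.1 CPM in KG1A NEL libraries, against 26.1, 23.7, 21.7 and 25.5 CPM in KG1A DMSO libraries, 1.63-fold higher (log2 fold change 0.70, SE 0.071, edgeR adjusted p = 1.87e-06). U937 libraries gave 129, 118, 125 and 122 CPM with NEL, against 100.1, 95.9, 97.8 and 95.0 CPM with DMSO, also without overlap (log2 fold change 0.34, SE 0.042, edgeR adjusted p = 5.83e-06).

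AURKA, the kinase of centrosomes and spindle poles, fell in U937, with 113, 112, 111 and 109 CPM with NEL against 153, 149.7, 147 and 151 CPM with DMSO (log2 fold change -0.44, SE 0.037, edgeR adjusted p = 1.51e-07). In KG1A its values overlapped, at 78.1, 68.2, 72.2 and 71.1 CPM with NEL and 78.1, 75.6, 76.4 and 77.9 CPM with DMSO, and it was not called (log2 fold change -0.089, SE 0.047, edgeR adjusted p = 0.137). With the replicate number as a block the adjusted p in KG1A was 0.0377, and without NEL library 1 it was 0.0373. None of the calls that members gained with the block in any comparison was made with libraries 1 and 3, and 2 and 4, summed (edgeR adjusted p from 0.158 to 0.534). NEK2, a centrosome kinase, rose in U937, with 71.6, 76.3, 72.9 and 78.2 CPM with NEL against 49.2, 54.8, 52.4 and 57.6 CPM with DMSO (log2 fold change 0.48, SE 0.055, edgeR adjusted p = 2.82e-06). In KG1A it averaged 46.2 ± 1.97 CPM with NEL and 45.4 ± 1.99 CPM with DMSO (adjusted p = 0.742). PLK4, which starts centriole duplication, rose in KG1A by 0.22 (SE 0.037, adjusted p = 0.000207) and was not called in U937 (-0.017).

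Of the 5 spindle assembly checkpoint genes, BUB1 fell in both lines. BUB1, a checkpoint kinase at kinetochores, had 192, 192, 189.9 and 188 CPM in U937 NEL libraries, against 290.3, 284, 294 and 306 CPM in U937 DMSO libraries, without overlap (log2 fold change -0.62, SE 0.038, edgeR adjusted p = 5.44e-09). In KG1A the fall was smaller, with 185, 181, 189 and 187 CPM with NEL against 209, 215, 229.6 and 205 CPM with DMSO (log2 fold change -0.21, SE 0.041, edgeR adjusted p = 0.000641). BUB1B, which encodes BUBR1, a part of the complex that inhibits CDC20, rose in KG1A (log2 fold change 0.15, SE 0.055, edgeR adjusted p = 0.0316). Its libraries overlapped, at 150.1, 154, 147 and 161 CPM with NEL and 127, 153, 129.6 and 141 CPM with DMSO. That call was lost without KG1A DMSO library 1 (adjusted p = 0.106), DMSO library 3 (0.103), NEL library 2 (0.0600) or NEL library 4 (0.0825). In U937 BUB1B averaged 219 ± 13.9 CPM with NEL and 240.5 ± 16.4 CPM with DMSO and was just outside the threshold (log2 fold change -0.13, SE 0.057, edgeR adjusted p = 0.0506). With the replicate block its adjusted p was 6.3e-05. MAD2L1, encoding MAD2, changed by 0.14 in KG1A (adjusted p = 0.0440) and by -0.099 in U937 (adjusted p = 0.133, and 0.0238 with the block). BUB3, which brings BUB1 and BUBR1 to kinetochores, and TTK, the kinase MPS1, fell in U937 by 0.20 and 0.21 and were not called in KG1A. There BUB3 had an adjusted p of 0.00385 with the block and a log2 fold change of 0.076.

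The 7 kinetochore genes did not all move one way. CENPE, the kinesin that carries chromosomes to the spindle equator, had 142, 151, 138 and 155 CPM in KG1A NEL libraries, against 226, 248, 239.9 and 237 CPM in KG1A DMSO libraries, without overlap (log2 fold change -0.70, SE 0.045, edgeR adjusted p = 2.66e-08). U937 gave 72.9, 85.1, 75.1 and 84.7 CPM with NEL, against 124, 136, 127 and 143 CPM with DMSO, also without overlap (log2 fold change -0.74, SE 0.062, edgeR adjusted p = 1.3e-07). CENPF, a large protein of the outer kinetochore and fibrous corona, fell in both lines too, averaging 271 ± 21.8 CPM with NEL and 389 ± 24.2 CPM with DMSO in KG1A (log2 fold change -0.52, SE 0.057, edgeR adjusted p = 4.31e-06). In U937 it averaged 392 ± 31.9 CPM with NEL and 605 ± 57.4 CPM with DMSO (log2 fold change -0.63, SE 0.069, edgeR adjusted p = 2.01e-06). Against these falls, NDC80, the subunit that grips microtubules, rose in both lines. It had 79.1, 86.4, 77.1 and 85.0 CPM with NEL, against 59.5, 69.3, 64.5 and 70.4 CPM with DMSO, in KG1A (log2 fold change 0.31, SE 0.058, edgeR adjusted p = 0.000481). U937 libraries had 54.2, 61.6, 55.7 and 60.2 CPM with NEL, against 45.3, 49.6, 49.1 and 54.2 CPM with DMSO (log2 fold change 0.23, SE 0.062, edgeR adjusted p = 0.00525).

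NDC80 works in a fixed complex with NUF2, SPC24 and SPC25, and these 4 partners did not move together. SPC24 rose in both lines, by 0.58 (SE 0.054) in KG1A and 0.24 (SE 0.055) in U937, and its value is uncertain. SPC25, its dimer partner, rose in KG1A, with 32.9, 34.5, 38.1 and 31.4 CPM with NEL against 28.7, 24.1, 25.97 and 24.3 CPM with DMSO (log2 fold change 0.41, SE 0.076, edgeR adjusted p = 0.000482). It fell in U937, with 52.3, 57.2, 50.6 and 54.2 CPM with NEL against 63.3, 60.3, 64.8 and 69.9 CPM with DMSO (log2 fold change -0.27, SE 0.057, edgeR adjusted p = 0.000748). The SPC25 groups did not overlap in either line; NOSTRIN, on the opposite strand, has 14.9% as many counts. NUF2, the partner of NDC80, averaged 62.7 ± 3.63 CPM with NEL and 70.2 ± 3.02 CPM with DMSO in KG1A and was called lower (log2 fold change -0.16, SE 0.052, edgeR adjusted p = 0.0187). That call was lost without DMSO library 4 (adjusted p = 0.0504), NEL library 1 (0.0626) or NEL library 2 (0.0574). It was also lost with limma-trend on RPKM (log2 fold change -0.094, adjusted p = 0.176), in the even-numbered libraries alone (0.0556) and with libraries 1 and 3, and 2 and 4, summed (0.0747). In U937 NUF2 was not called (log2 fold change 0.045, SE 0.058, edgeR adjusted p = 0.503). CENPA, the histone H3 variant of centromeres, averaged 35.8 ± 3.89 CPM with NEL and 38.6 ± 2.44 CPM with DMSO in KG1A, where it was not called. In U937 it averaged 57.3 ± 3.98 CPM with NEL and 64.0 ± 4.24 CPM with DMSO and was called lower (log2 fold change -0.16, SE 0.062, edgeR adjusted p = 0.0339). SLC35F6, on the same strand, overlaps it and has 95.5% as many counts.

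Partners of AURKB in the chromosomal passenger complex did not rise with it in U937. BIRC5, which encodes survivin, the subunit that targets the complex to centromeres, fell in U937, with 43.7, 49.1, 50.005 and 45.3 CPM with NEL against 54.2, 53.1, 57.5 and 57.2 CPM with DMSO (log2 fold change -0.24, SE 0.056, edgeR adjusted p = 0.00168). In KG1A it rose, with 133, 131, 145 and 148 CPM with NEL against 114, 111, 114 and 114 CPM with DMSO (log2 fold change 0.30, SE 0.044, edgeR adjusted p = 6.64e-05). An unnamed gene on the opposite strand overlaps BIRC5 and has 52.2% as many counts. CDCA8, which encodes borealin, fell in both lines. It had 95.8, 92.9, 104 and 94.3 CPM with NEL, against 148, 142, 154 and 135 CPM with DMSO, in U937 (log2 fold change -0.58, SE 0.051, edgeR adjusted p = 2.05e-07). In KG1A it had 78.9, 71.2, 71.5 and 64.5 CPM with NEL, against 80.3, 76.1, 89.96 and 80.7 CPM with DMSO (log2 fold change -0.19, SE 0.063, edgeR adjusted p = 0.0211). The KG1A libraries of CDCA8 overlapped, and its call was lost without DMSO library 3 (adjusted p = 0.0758), without NEL library 4 (0.0652) and with limma-trend on RPKM (0.140). INCENP, the scaffold of the complex, fell in U937 by 0.20 (adjusted p = 0.00173) and was not called in KG1A (-0.043).

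Among 6 kinesin motors, KIF20A fell most. KIF20A (ENSG00000112984, chr5:137514408-137523404), the motor that brings PLK1 and the passenger complex to the central spindle, had 50.5, 49.8, 49.7 and 44.0 CPM in U937 NEL libraries, against 121, 125, 131 and 119 CPM in U937 DMSO libraries, 2.56-fold lower (log2 fold change -1.36, SE 0.054, edgeR adjusted p = 7.66e-11). In KG1A it had 42.6, 39.3, 39.9 and 37.4 CPM with NEL, against 71.0, 69.0, 71.5 and 74.4 CPM with DMSO (log2 fold change -0.84, SE 0.051, edgeR adjusted p = 1.28e-08). Neither line had a NEL library within the range of the DMSO libraries. CDC23 and BRD8 overlap the ends of KIF20A by 66 and 268 bases on the opposite strand and have 76.9% and 77.5% as many counts, so its value is uncertain. KIF14, a motor of cytokinesis, fell in both lines (-0.38 in KG1A, -0.42 in U937). KIF11, the motor (Eg5) that pushes spindle poles apart, fell in U937, with 130.3, 144, 134 and 143 CPM with NEL against 161, 183, 180.5 and 191 CPM with DMSO (log2 fold change -0.37, SE 0.054, edgeR adjusted p = 2.91e-05). It was not called in KG1A, at 179 ± 8.18 CPM with NEL and 171 ± 8.41 CPM with DMSO (log2 fold change 0.072, SE 0.045, edgeR adjusted p = 0.204, and adjusted p = 0.0165 with the replicate block). KIF2C, a motor that takes microtubules apart at centromeres, rose in KG1A by 0.37 and was not called in U937 (-0.0093). KIF23, a centralspindlin motor, fell in U937 by 0.19 and had 0.10 in KG1A (adjusted p = 0.0543, and 0.00598 with the block), and KIF4A, a chromokinesin, was called in neither line, though with the replicate block its adjusted p in U937 was 0.00407 at a log2 fold change of 0.10. Genes on the opposite strand overlap KIF2C and KIF4A and have 13.2% and 21.9% as many counts as they do.

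All 8 spindle assembly and microtubule binding genes were called in both lines: 5 rose and 3 fell in KG1A, 2 rose and 6 fell in U937. Of all genes tested, 47.2% were called in KG1A and 69.3% in U937. PSRC1, a microtubule binding protein that works with kinesins at spindles, was the most lowered of the 55 in KG1A. It had 4.17, 3.27, 3.04 and 3.60 CPM in KG1A NEL libraries, against 11.1, 9.43, 9.90 and 10.2 CPM in KG1A DMSO libraries, 2.88-fold lower (log2 fold change -1.53, SE 0.12, edgeR adjusted p = 2.47e-07). In U937, where its level was higher in both groups, it had 31.1, 35.1, 34.3 and 36.1 CPM with NEL, against 48.3, 50.3, 46.6 and 48.3 CPM with DMSO (log2 fold change -0.50, SE 0.057, edgeR adjusted p = 2.9e-06). NUSAP1, which bundles microtubules around chromosomes, rose in both lines, with 371, 394, 365 and 386 CPM with NEL against 249, 268, 263 and 279 CPM with DMSO in KG1A (log2 fold change 0.52, SE 0.042, edgeR adjusted p = 2.34e-07). U937 libraries had 723, 749, 688 and 731 CPM with NEL against 476, 498, 501 and 517 CPM with DMSO (log2 fold change 0.54, SE 0.041, edgeR adjusted p = 5.44e-08). CKAP2L, a spindle protein, also rose in both, averaging 261 ± 3.56 CPM with NEL and 201 ± 3.67 CPM with DMSO in KG1A. In U937 it averaged 118 ± 3.62 CPM with NEL and 94.5 ± 1.91 CPM with DMSO.

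DLGAP5, which encodes HURP, a spindle stabiliser near chromosomes, fell in both lines, with 81.0, 80.5, 71.0 and 79.4 CPM with NEL against 118, 131, 134 and 149 CPM with DMSO in U937 (log2 fold change -0.77, SE 0.066, edgeR adjusted p = 1.69e-07) and a log2 fold change of -0.42 in KG1A. HMMR, a spindle pole protein, fell by 0.29 in KG1A and 0.42 in U937. TPX2, TACC3 and GTSE1 were higher in KG1A and lower in U937. TPX2, which activates AURKA and seeds spindle microtubules, had 311, 327, 323 and 329 CPM in KG1A NEL libraries, against 292, 293, 301 and 293 CPM in KG1A DMSO libraries (log2 fold change 0.13, SE 0.034, edgeR adjusted p = 0.00609). In U937 it had 746, 766, 749.8 and 758 CPM with NEL, against 865, 889, 919 and 938 CPM with DMSO (log2 fold change -0.26, SE 0.039, edgeR adjusted p = 3.95e-05). TACC3, which AURKA places on spindle fibres, had 227, 239, 229.8 and 242 CPM in KG1A NEL libraries, against 175, 191, 168 and 195 CPM in KG1A DMSO libraries (log2 fold change 0.37, SE 0.048, edgeR adjusted p = 2.26e-05). In U937 the order was the opposite, with 222, 243, 236 and 249.6 CPM with NEL and 311, 340.2, 301 and 325 CPM with DMSO (log2 fold change -0.43, SE 0.049, edgeR adjusted p = 3.09e-06). Both genes were free of overlap between NEL and DMSO in each line. GTSE1, a microtubule binding protein of G2, averaged 43.1 ± 2.83 CPM with NEL and 51.7 ± 2.22 CPM with DMSO in U937 (log2 fold change -0.26, SE 0.058, edgeR adjusted p = 0.00112). Its rise in KG1A was at the threshold, with overlapping libraries (log2 fold change 0.18, SE 0.069, edgeR adjusted p = 0.0413). It was lost with the DESeq2 test (0.0609), with upper quartile factors (0.0528) and in 6 of 8 fits that left out a library, up to 0.139 without DMSO library 4.

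Of the 4 cytokinesis genes, ANLN, the scaffold of the contractile ring, rose in both lines. It had 132, 132, 130.2 and 126 CPM with NEL, against 104, 104, 98.9 and 103 CPM with DMSO, in KG1A (log2 fold change 0.34, SE 0.038, edgeR adjusted p = 4.3e-06). U937 libraries had 233, 243, 238 and 242 CPM with NEL, against 179.5, 188, 184 and 192 CPM with DMSO (log2 fold change 0.36, SE 0.038, edgeR adjusted p = 1.29e-06). ECT2, which activates RHOA at the equator, fell in both, by 0.12 (adjusted p = 0.0311) in KG1A and 0.36 in U937. PRC1, which crosslinks the central spindle, fell in U937 by 0.14; PRC1-AS1 on the opposite strand has 21.7% as many counts. RACGAP1, the centralspindlin partner of KIF23, was called in neither line; with the replicate block its adjusted p in KG1A was 0.000599 at a log2 fold change of 0.12, and that of PRC1 was 0.0330.

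CDC20 fell more than any other of the 55 genes in U937. CDC20 (ENSG00000117399, chr1:43824626-43828874), the APC/C activator that the checkpoint restrains, had 84.6, 74.7, 79.7 and 75.8 CPM in U937 NEL libraries, against 236, 209, 221 and 209 CPM in U937 DMSO libraries, 2.78-fold lower (log2 fold change -1.47, SE 0.054, edgeR adjusted p = 4.13e-11). In KG1A it had 52.8, 47.5, 53.9 and 46.8 CPM with NEL, against 86.1, 79.9, 89.0 and 83.5 CPM with DMSO, 1.68-fold lower (log2 fold change -0.75, SE 0.056, edgeR adjusted p = 1.07e-07). The highest NEL library was below the lowest DMSO library in both lines. UBE2S and UBE2C encode the ubiquitin conjugating enzymes that work with APC/C, and they differed. UBE2S fell in both lines, averaging 25.4 ± 2.03 CPM with NEL and 34.5 ± 4.34 CPM with DMSO in KG1A (log2 fold change -0.44, SE 0.088, edgeR adjusted p = 0.000819). In U937 it averaged 38.9 ± 3.31 CPM with NEL and 72.4 ± 5.92 CPM with DMSO (log2 fold change -0.90, SE 0.071, edgeR adjusted p = 7.18e-08). RPL28 on the opposite strand, with 1914% of its count, overlaps it, so its value is uncertain. UBE2C rose in KG1A by 0.38 (adjusted p = 0.000600) and was not called in U937 (-0.079). PTTG1, which encodes securin, fell in both lines (-0.30 in KG1A, -0.20 in U937). ESPL1, which encodes separase, rose in KG1A, with 51.5, 45.4, 48.3 and 45.6 CPM with NEL against 43.3, 37.6, 41.5 and 39.2 CPM with DMSO (log2 fold change 0.24, SE 0.06, edgeR adjusted p = 0.00445). It was not called in U937 (log2 fold change -0.067, SE 0.056, edgeR adjusted p = 0.305). CDCA3, a factor in the destruction of the CDK1 inhibitor WEE1, fell in U937, with 51.1, 55.2, 54.2 and 50.8 CPM with NEL against 73.9, 76.6, 75.9 and 78.9 CPM with DMSO (log2 fold change -0.53, SE 0.047, edgeR adjusted p = 2.16e-07). In KG1A it rose (log2 fold change 0.17, SE 0.048, edgeR adjusted p = 0.00751) without overlap, a call lost in the even-numbered libraries alone (0.0804); GNB3 on the opposite strand has 12.4% as many counts.

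CDCA5, which encodes sororin, the protector of cohesin between sister chromatids, rose most of the 55 genes in KG1A. It (ENSG00000146670, chr11:64833772-64851636) had 319, 326, 333 and 331 CPM in KG1A NEL libraries, against 153, 145, 152 and 153 CPM in KG1A DMSO libraries, 2.17-fold higher (log2 fold change 1.12, SE 0.035, edgeR adjusted p = 5.52e-11). In U937 it had 136, 135, 132 and 129.6 CPM with NEL, against 106, 103, 103 and 102 CPM with DMSO (log2 fold change 0.36, SE 0.038, edgeR adjusted p = 1.36e-06). TOP2A, the topoisomerase that untangles chromosomes, had 842, 894, 843 and 883 CPM in U937 NEL libraries, against 659.9, 679, 657 and 690.4 CPM in U937 DMSO libraries (log2 fold change 0.37, SE 0.039, edgeR adjusted p = 1.42e-06). In KG1A it averaged 775 ± 16.2 CPM with NEL and 704 ± 11.8 CPM with DMSO (log2 fold change 0.14, SE 0.034, edgeR adjusted p = 0.00407). CDCA2, which brings protein phosphatase 1 to chromatin, rose in KG1A, with 78.4, 84.9, 87.5 and 85.9 CPM with NEL against 59.7, 71.6, 66.1 and 71.2 CPM with DMSO (log2 fold change 0.33, SE 0.059, edgeR adjusted p = 0.000374). It fell in U937, with 58.2, 56.5, 52.1 and 61.5 CPM with NEL against 69.6, 78.7, 79.5 and 85.5 CPM with DMSO (log2 fold change -0.46, SE 0.066, edgeR adjusted p = 2.9e-05). MKI67, the proliferation marker Ki-67 that coats mitotic chromosomes, averaged 923 ± 36.8 CPM with NEL and 986 ± 29.4 CPM with DMSO in KG1A (log2 fold change -0.095, SE 0.04, edgeR adjusted p = 0.0627). In U937 it averaged 1107 ± 51.1 CPM with NEL and 1191 ± 47.2 CPM with DMSO (log2 fold change -0.11, SE 0.045, edgeR adjusted p = 0.0507). Neither value was called; with the replicate block the adjusted p was 1.29e-05 in KG1A and 8.04e-05 in U937, for differences of -0.096 and -0.11. With libraries 1 and 3, and 2 and 4, summed, it was 0.275 in KG1A and 0.193 in U937.

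Of the 55 genes, 25 were called in the same direction in both lines. In detail, 10 were higher in both, 15 lower in both and 7 higher in KG1A and lower in U937, and none was lower in KG1A and higher in U937. Those higher in both were ANLN, AURKB, CDC25B, CDCA5, CDK1, CKAP2L, NDC80, NUSAP1, SPC24 and TOP2A, 10 of the 24 genes that rose in KG1A and of the 12 that rose in U937. Those lower in both were BUB1, CCNB1, CDC20, CDCA8, CENPE, CENPF, DLGAP5, ECT2, HMMR, KIF14, KIF20A, PLK1, PSRC1, PTTG1 and UBE2S, 15 of the 16 that fell in KG1A and of the 32 that fell in U937. As a background, 11.7% of the 12590 genes tested in both lines were higher in both, against 18.2% of the 55. Lower in both were 12.6%, against 27.3%. A further 5.61% were higher in KG1A and lower in U937, against 12.7%; and 5.54% were lower in KG1A and higher in U937, against 0 of 55. Across the 55 genes the log2 fold changes of the lines had a Pearson r of 0.71 and a Spearman rho of 0.68, against 0.30 and 0.28 across the 12590 genes; genes are not independent replicates, so these are descriptions. Of the 7 genes of opposite direction, CDCA3, GTSE1 and TPX2 lost their KG1A call with libraries 1 and 3, and 2 and 4, summed, and so did CCNB1, CDCA8 and ECT2 among those lower in both and TOP2A among those higher in both. NDC80, also higher in both, lost its U937 call in that fit. KIF4A, MKI67 and RACGAP1 were called in neither line without the replicate block.

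**Figure D4:**
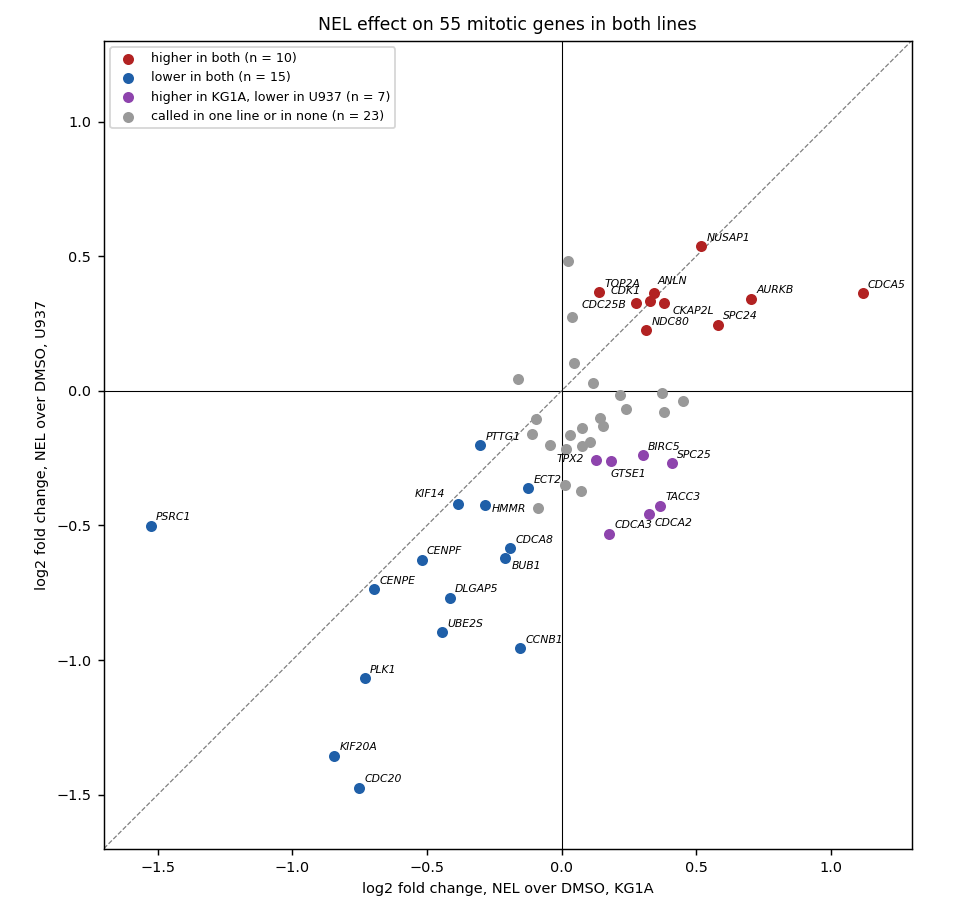
Log2 fold change, NEL over DMSO, in U937 (vertical axis) against KG1A (horizontal axis) for the 55 genes; colours give the calls in both lines and the dashed line marks equal change. The 15 genes lower in both lie mostly under the line, with CDC20 and KIF20A lowest, CDCA5 lies farthest to the right, and the 7 of opposite direction lie to the lower right.

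Whether NEL acted differently in the lines was tested as an interaction over all 16 libraries, U937 minus KG1A. It was negative for 34 of the 55 genes, positive for 4 and not called for 17. Among all 16117 genes tested 47.4% were called, 26.3% lower and 21.1% higher, and the median was -0.29 for the 55 and -0.034 for all genes. The median absolute difference was smaller for the 55, at 0.306, than for all genes, at 0.415. With the DESeq2 test 31 members were called, and 54.6% of all genes called were higher, against 44.5% in edgeR with TMM factors. In edgeR with DESeq2 size factors these were 33 and 54.2%, and with upper quartile factors 34 and 52.3%. The median of all genes turned to 0.053, 0.050 and 0.035 in these 3 settings. Of called members 12.9%, 12.1% and 11.8% were higher there, against 10.5% with TMM factors. The most negative were CCNB1, with a NEL effect of -0.96 in U937 and -0.15 in KG1A (difference -0.81, SE 0.067, edgeR adjusted p = 2.09e-09), TACC3 (-0.80, 5.23e-09), CDCA2 (-0.79, 3.59e-07) and CDCA5 (-0.77, 3.09e-11). For CDCA5 the difference was between rises of 0.36 in U937 and 1.12 in KG1A. CDC20 fell further in U937 than in KG1A (-0.73, 1.06e-07), and so did KIF20A (-0.52, 4e-06), PLK1 (-0.35, 7.99e-05) and BUB1 (-0.42, 1.28e-06). For all 7 genes of opposite direction the difference was called in this fit, from -0.40 for TPX2 to -0.80 for TACC3. These 7 were picked by their opposite calls in the same libraries, so their calls here are no separate evidence. FOXM1 (-0.50, 1.75e-07), KIF11 (-0.46, 2.08e-05), CCNA2 (-0.37), AURKA (-0.36) and AURKB (-0.37, 0.000410) were also called, and BUB1B (-0.30, 0.00530) was not called by DESeq2 (0.0533). With libraries 1 and 3, and 2 and 4, summed, 28 of the 38 differences were still called. Those lost were BUB1B, ECT2, ESPL1, INCENP, KIF2C, NUF2, PRC1, TOP2A, TTK and UBE2S, with adjusted p from 0.0578 to 0.193. Over all genes that fit called 3394 lower and 2564 higher, against 4239 and 3404 with the libraries kept apart.

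The 4 genes with a positive difference were PSRC1, NEK2, TOP2A and NUF2. PSRC1 fell less in U937 than in KG1A (-0.50 and -1.53; difference 1.01, SE 0.13, edgeR adjusted p = 7.52e-07). NEK2 rose in U937 and was not called in KG1A (difference 0.45, 4e-05). TOP2A rose further in U937 (difference 0.22, 0.000732). NUF2 was at the threshold (difference 0.20, 0.0481) and lost its call in 10 of 16 fits without a library, in the odd-numbered libraries alone and without a filter, with an adjusted p up to 0.113. For CDK1 the difference was -0.0071 (SE 0.059, 0.975), for NDC80 -0.098 (SE 0.088), for NUSAP1 0.0089 (SE 0.058), for CENPE -0.051 (SE 0.08) and for MKI67 -0.021 (SE 0.059), none of them called. CCNB2, CENPF and HMMR were also called in the interaction with the replicate block (2.9e-05, 0.00371 and 0.0462).

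Without NEL, most of these genes stood higher in U937 than in KG1A, relative to all other genes. Of the 55, 36 were higher in U937 DMSO libraries, 13 lower and 6 not called. Among all 15181 genes tested 86.4% were called, 43% higher and 43.4% lower, and the median difference was 0.52 for the 55 and -0.0011 for all genes. The median absolute difference was 0.735 for the 55 and 0.845 for all genes. The libraries of the lines did not overlap for 47 members, against 81.5% of all genes tested. PSRC1 differed most, with 45.9, 47.8, 44.3 and 45.7 CPM in U937 DMSO libraries, against 11.1, 9.38, 9.89 and 10.2 CPM in KG1A DMSO libraries (log2 difference 2.18, SE 0.07, edgeR adjusted p = 1.56e-14). AURKB had 95.1, 91.2, 93.1 and 89.9 CPM in U937 DMSO libraries, against 26.1, 23.6, 21.6 and 25.3 CPM in KG1A DMSO libraries (1.93, SE 0.059). ESPL1 had 132, 119.99, 125 and 118 CPM in U937 DMSO libraries, against 43.2, 37.4, 41.4 and 39.0 CPM in KG1A DMSO libraries (1.62, SE 0.056). The largest differences the other way were CKAP2L, with 92.0, 87.6, 90.2 and 89.4 CPM in U937 DMSO libraries, against 196, 201, 202 and 203 CPM in KG1A DMSO libraries (-1.16, SE 0.04), BIRC5 (-1.10, SE 0.045) and CENPE (-0.91, SE 0.049). CCNB1 (0.84), PLK1 (0.82), AURKA (0.89), BUB1B (0.74) and CCNA2 (0.44) were higher in U937, as was MKI67 by 0.20 and FOXM1 by 0.31. NDC80 (-0.48) was lower in U937, and TOP2A (-0.14, adjusted p = 0.00282) was lower but not called in one model of all libraries (-0.055, 0.134). With libraries 1 and 3, and 2 and 4, summed, the calls of CDCA2, NEK2, SPC24 and TOP2A between the lines were lost (0.0706 to 0.126). CDK1 (-0.061, SE 0.045) and KIF11 (-0.0027, SE 0.052) were not called.

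On the RPKM scale, scaled by exon length and library total, CDC20 averaged 39.8 ± 2.06 in U937 NEL and 104 ± 6.31 in U937 DMSO libraries, and 25.2 ± 1.61 in KG1A NEL and 40.5 ± 1.87 in KG1A DMSO libraries (SD, n = 4 each). CCNB1 averaged 44.6 ± 2.07 in U937 NEL and 81.3 ± 3.33 in U937 DMSO libraries, and 41.0 ± 1.61 in KG1A NEL and 43.6 ± 3.24 in KG1A DMSO libraries. PLK1 averaged 27.9 ± 0.967 in U937 NEL and 54.8 ± 1.94 in U937 DMSO libraries, and 18.8 ± 0.893 in KG1A NEL and 29.8 ± 1.39 in KG1A DMSO libraries. For these 3 genes the U937 NEL mean lay within 3 RPKM of the KG1A DMSO mean. They are a selection, and that pair of groups was not tested for any member. Others lay far apart: TPX2 averaged 216 RPKM in U937 NEL and 79.8 in KG1A DMSO libraries, and AURKB 56.8 and 10.6.

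Per length, the order of the 55 genes also moved with NEL. CDC20 was number 20 of 55 by mean RPKM in U937 NEL libraries and number 3 in U937 DMSO libraries, and number 27 in KG1A NEL and 11 in KG1A DMSO libraries. PLK1 was number 31 in U937 NEL and 15 in U937 DMSO, and number 40 in KG1A NEL and 23 in KG1A DMSO libraries. CDK1, in contrast, was number 17 in U937 NEL and 29 in U937 DMSO, and CDCA5 was number 5 in KG1A NEL and 13 in KG1A DMSO libraries. The highest in each group were NUSAP1 in KG1A NEL (135 ± 5.61 RPKM), TOP2A in KG1A DMSO (107 ± 2.31), NUSAP1 in U937 NEL (259 ± 9.58) and TPX2 in U937 DMSO (242 ± 7.43). The lowest were PSRC1 in KG1A NEL (1.26 ± 0.168), CDC25C and PSRC1 in KG1A DMSO (3.46 ± 0.389 and 3.47 ± 0.226, which do not differ beyond their spread), and CDC25C in U937 NEL (4.56 ± 0.243) and U937 DMSO (3.54 ± 0.443). Within the NDC80 complex, SPC25 was the highest of the 4 subunits in both U937 groups, SPC24 in KG1A NEL libraries and NUF2 in KG1A DMSO libraries.

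**Figure D5:**
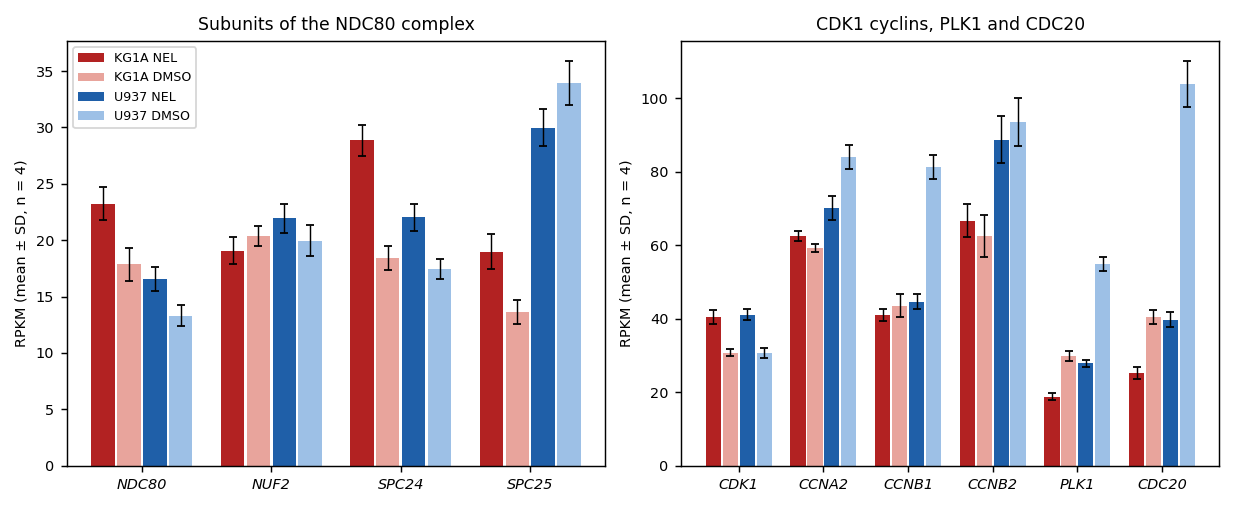
Mean RPKM with SD (n = 4 libraries) of the NDC80 complex subunits (left) and of CDK1, its cyclins, PLK1 and CDC20 (right) in KG1A NEL, KG1A DMSO, U937 NEL and U937 DMSO, on axes from 0. CDC20, CCNB1 and PLK1 stand out in U937 DMSO libraries, and CDK1 is higher with NEL in both lines.

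A wider set of 125 other mitotic genes in 7 lists, with 124 tested in each line, also had more genes rise than fall in KG1A and more fall than rise in U937. In KG1A 58 rose and 27 fell (median 0.13), and in U937 35 rose and 55 fell (median -0.07), beside 47.2% and 69.3% of all genes called in KG1A and U937. The 27 that fell in KG1A became 14 with limma-trend on RPKM and with libraries 1 and 3, and 2 and 4, summed. These lists were chosen with earlier results of these data known. In KG1A, 20 of 31 inner kinetochore and KNL1-MIS12 genes rose and 3 fell, and in U937, 11 rose and 12 fell. CENPU, an inner kinetochore subunit, rose in KG1A by 1.08 (SE 0.07, edgeR adjusted p = 2.6e-08), and ZW10, a checkpoint and dynein adaptor, fell in U937 by 0.94 (SE 0.049, 1.06e-09). Cohesin genes fell or were not called in KG1A, with 6 of 9 lower, led by STAG2 (-0.74, SE 0.12, 0.000195); in U937, 5 fell, led by STAG1 (-1.09, SE 0.057), and SMC1A rose by 0.30. STAG1 and STAG2 encode alternative subunits of the cohesin ring. Of 8 condensin genes, 5 rose and 1 fell in KG1A, led by NCAPG2 (0.76, SE 0.049), and 3 rose and 3 fell in U937, led by NCAPH (-0.55, SE 0.046).

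In a list of 17 genes, APC/C subunits together with FZR1, FBXO5 and MAD2L1BP, 2 rose and 5 fell in KG1A, and 1 rose and 12 fell in U937. In all 41.2% of them were called in KG1A and 76.5% in U937. Beside this list and those below, 23.6% of all genes tested in KG1A were called higher and 23.6% lower. In U937 these shares were 34.6% and 34.7%. CDC26, a small APC/C subunit, fell in both lines (-0.96, SE 0.22, adjusted p = 0.00219 in KG1A, where it was not called in the odd-numbered libraries alone at 0.0549; -1.02, SE 0.17 in U937). Of 13 genes of the MuvB core and its MYB, E2F and pocket protein partners, 7 rose and 3 fell in KG1A and 6 rose and 5 fell in U937. MYBL2, which encodes B-MYB, rose in KG1A by 1.19 (SE 0.035, 2.43e-11), and its relative MYBL1 rose in U937 by 0.83 (SE 0.07, 1.31e-07). Of 19 other entry and exit regulators, 8 rose and 4 fell in KG1A, led by CDC25A (0.95, SE 0.049), a phosphatase of CDK2 and CDK1. In U937, 4 of the 18 tested rose and 9 fell, led by the phosphatase gene CDC14B (1.28, SE 0.11). Of 28 other kinesins and spindle genes, 16 of the 27 tested rose and 5 fell in KG1A, led by KIF24 (0.88, SE 0.088), and 9 rose and 9 fell in U937, led by TACC2 (2.10, SE 0.38). In the interaction 68 of 124 were lower and 13 higher in U937 than in KG1A, beside 26.3% lower and 21.1% higher among all genes tested. The 13 became 20 with DESeq2 size factors or the DESeq2 test and 21 with the replicate block.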

How the data were processed

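RNA of the 16 libraries was sequenced with a stranded poly(A) kit, per the labels' protocols. The submitters' processing notes name bcl2fastq 2.18.0.12, TopHat2, HTSeq 0.11.2 and the human build hg19. How strand was handled in counting is not given in the sources used here. Raw counts per Ensembl gene and RPKM values were deposited by the authors as 2 tables. The deposited RPKM equalled count over exon length and library total, with a largest relative deviation of 1.86e-07. Symbols matched 32562 of 34618 gene IDs, and the IDs without one held 0.878% of counts. No value column was left without a sample.

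Counts were tested with edgeR 4.0.16 in R 4.3.3 (quasi-likelihood test, TMM factors, genes kept at a count minimum of 10 and a total of 15, Benjamini-Hochberg over all genes tested, calls at an adjusted p under 0.05), each line or the DMSO groups in a fit of their own and the interaction over all 16 libraries. The steps were tested on simulated data. Alternatives were DESeq2 1.42.0, limma 3.58.1 (voom, and trend on log2 RPKM plus 0.5 or 0.1), other scaling factors and filters, a threshold of 0.01, library sets, a replicate block, one model of all libraries, and each library left out; summing libraries in pairs was chosen after seeing the data. Same-numbered NEL and DMSO libraries deviated together in both lines (correlations of 0.286 to 0.370 in KG1A and 0.317 to 0.364 in U937 over 11848 genes), each over the 0.1 set for taking the numbers as pairs, and the block is given where it changes a call. Other libraries of the same odd or even set correlated as highly (up to 0.329 in KG1A and 0.401 in U937), and a library's own number was the best match for 3 of 4 libraries in KG1A and 2 of 4 in U937. Named in full were 12 core genes, the largest called change per role and line, the extremes of the interaction and of the line difference, and genes of opposite direction; other members are named by value. The members and lists were chosen with earlier results of these data known. Figures were drawn with matplotlib 3.10.9. The count that makes the SPC24 value uncertain is not reported here.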

Additional observations from a re-analysis of the deposited data

Results flagged for a closer look

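In 7 of 128 groups of 4 libraries checked, 1 library stood apart from the other 3 by more than Dixon's test allows; chance flags about 1 in 20 groups. The gap to the nearest library, as a share of the group's range, was 0.947 for library 1 of CCNB1 in KG1A NEL, 0.868 for library 4 of KIF20A in U937 NEL and 0.835 for library 3 of DLGAP5 in U937 NEL. In KG1A DMSO it was 0.941 for library 3 of TPX2, 0.936 for library 4 of GTSE1, 0.932 for library 2 of CDCA5 and 0.830 for library 2 of BIRC5.

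The NEL effect differed between the lines, by the edgeR interaction test, for 26 of the 32 genes named by rule. These 32 include genes chosen for their interaction or for opposite calls, and 38 of the 55 members and 47.4% of all genes were called. The log2 difference, U937 minus KG1A, was negative for CCNB1 (-0.81), TACC3 (-0.80), CDCA2 (-0.79), CDCA5 (-0.77), CDC20 (-0.73), CDCA3 (-0.72), SPC25 (-0.69), BIRC5 (-0.55), KIF20A (-0.52), FOXM1 (-0.50), KIF11 (-0.46), GTSE1 (-0.45), BUB1 (-0.42), CDCA8 (-0.40), TPX2 (-0.40), CCNA2 (-0.37), AURKB (-0.37), DLGAP5 (-0.36), AURKA (-0.36), PLK1 (-0.35), ESPL1 (-0.32) and BUB1B (-0.30). It was positive for NUF2 (0.20), TOP2A (0.22), NEK2 (0.45) and PSRC1 (1.01).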

How the results depend on the processing

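The counts of members called stayed within 1.5 times of the values given in each comparison, from 29 to 47 in KG1A, 37 to 48 in U937, 28 to 41 for the interaction and 45 to 50 for the lines in DMSO. One split moved more: with libraries 1 and 3, and 2 and 4, summed, 2 members had a positive interaction in place of 4. With the replicate block 47, 48, 41 and 50 members were called, every call was kept, and the gained ones, given beside their genes apart from NUF2 between the lines in DMSO (0.0465), were not called with libraries 1 and 3, and 2 and 4, summed. Without 1 library the counts were 36 to 39 in KG1A, 43 to 45 in U937, 36 to 38 for the interaction and 47 to 49 between the lines. Of the other mitotic genes, 14 in place of 27 fell in KG1A with limma-trend on RPKM and with libraries 1 and 3, and 2 and 4, summed, and in the interaction 20 (DESeq2 size factors or test) or 21 (replicate block or library set as covariate) were higher in place of 13.

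Only uncalled values changed sign, 39 values of 8 results out of 2991 values of 118 results. In U937, ESPL1 turned to 0.021 and 0.022 on RPKM, and FOXM1 to 0.018 with upper quartile factors and 0.051 on RPKM at either pseudocount. The interaction of CDK1 turned to 0.079 with DESeq2 size factors or test, 0.064 with upper quartile factors, 0.028 on RPKM and 0.022 in odd-numbered libraries; that of MKI67 turned to 0.066, 0.050, 0.014 and 0.020 in the same settings. Between the lines in DMSO, CDK1 turned to 0.023 in one model of all libraries, and KIF11 to 0.043 with upper quartile factors, 0.0058 without a filter, 0.053 and 0.054 on RPKM, 0.0046 in even-numbered libraries, 0.0097 and 0.0043 with libraries summed and 0.081 in one model. Without 1 library the ranges were -0.00083 to 0.023 for CCNA2 and -0.0032 to 0.046 for NEK2 in KG1A, -0.030 to 0.022 for CDK1 and -0.046 to 0.0069 for MKI67 in the interaction, and -0.040 to 0.044 for KIF11 between the lines. The causes were not tested. Where a call was lost or gained, 63 and 39 values did so with the direction kept. Depth limits the low genes most, such as CDC25C and PSRC1.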

Other observations

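Ratios between members within a library, on the RPKM scale, were chosen after their values were seen. Some moved with NEL in both lines and others did not. CDC20 over CDK1 was 0.625 ± 0.067 in KG1A NEL and 1.32 ± 0.10 in KG1A DMSO libraries, and 0.969 ± 0.087 in U937 NEL and 3.40 ± 0.34 in U937 DMSO libraries (SD, n = 4 each). PLK1 over CDK1 averaged 0.465 in KG1A NEL and 0.970 in KG1A DMSO libraries, and 0.678 in U937 NEL and 1.79 in U937 DMSO libraries. AURKA over AURKB averaged 1.40 in KG1A NEL and 2.44 in KG1A DMSO libraries, and 0.689 in U937 NEL and 1.18 in U937 DMSO libraries. These ratios were not tested, and they restate the changes of their genes.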
